A study of Rattus norvegicus with 60 samples.

Results

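The expression of 10 genes of dendritic cells and of the costimulation of T cells was followed across the knee and the popliteal lymph node of rats with haemophilia A. They were Itgax, Ly75, Cd80, Cd86, Ccr7, Flt3, Xcr1, Batf3, Clec9a and Cd83, chosen by name. The choice was made with earlier results of these data known, so their counts beside those of all probe sets are not an independent test. A gene was measured by the probe set, a group of array probes read out as 1 value, that was annotated to that gene symbol alone, and by the one with the highest mean where there were several. All 10 genes were found, through 11 such probe sets, out of 18166 genes with a single symbol and 36685 probe sets on the array. Cd80 was the gene with 2 of them.

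Dendritic cells take up material in a tissue, travel through the lymph to the draining node and present antigen there to T cells. A T cell needs, beside the antigen, a second signal from costimulatory molecules, of which CD80 and CD86 are the best known; both bind CD28, which activates, and CTLA-4, which restrains. CD83 and the chemokine receptor CCR7 are acquired as dendritic cells mature, and CCR7 guides them, as it does naive T cells, towards the node. ITGAX (CD11c) and LY75 (DEC-205) are surface proteins long used to recognise dendritic cells, FLT3 is the receptor for their growth factor, and BATF3, CLEC9A and XCR1 belong to the cross-presenting type called cDC1. Several of these genes are also read in other cells: macrophages can carry CD11c and CD86, B cells carry CD80, CD86, CD83 and CCR7, and FLT3 also marks early blood progenitors.

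The study used 20 rats with haemophilia A, a bleeding disorder caused by the lack of coagulation factor VIII, and 1 RNA array per sample. A bleed had been induced in the left knee of 11 rats, numbered with K, and 9 other rats, numbered with C, had undergone a sham procedure, with tissue taken 24 h later. Every group carried the disease, and no rat without it was among the samples. Both knees and both popliteal nodes of the bled rats gave 11 arrays per side and tissue, and the sham rats gave 9 nodes and 7 knees, each from the right side. Bled samples were thus always from the left and all others from the right, so side and bleed cannot be told apart, and neither can bleed and injury, the word the labels use for that knee. Strain, sex and age were not used here.

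The tissue labels held on the defining markers. The mean log2 value of 8 genes that define lymph nodes lay between 11.20 and 11.73 on the 31 node arrays and between 6.80 and 7.62 on the 29 knee arrays, and that of 8 genes of the synovial stroma between 8.73 and 9.58 in nodes and between 10.70 and 11.75 in knees. The array medians ran from 5.64 to 5.94, and precision rested on the number of arrays. Some arrays stood apart. The contralateral knee of rat K10 had a neutrophil marker mean of 8.78, against 6.31 or less on the other contralateral knees, and the sham node of rat C9 was low for several of the 10 genes. Cd80 on the bled-side nodes, 0.20 above sham and not called, was 0.04 above it without the sham node of C9.

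Promoter windows were read so that the changes in expression can be set beside the letters upstream of each gene, and those of the genes whose window held a motif match are shown. RefSeq (GRCr8) held windows from 250 bases before to 50 bases after the start of the gene for 9 of the 10 genes, all except Ccr7, and 10 windows in all since Cd80 had 2. They were searched on both strands for 4 motifs of factors known in immune cells: AP-1 (TGANTCA), PU.1 (GAGGAAGT), the interferon-stimulated response element or ISRE (TTTC and TTTC parted by 2 bases of any kind) and NF-kB (GGG and TTTCC parted by 2 bases of any kind). Shown are the Cd80 window that holds a match (chr11:75797207-75797506, minus strand), Cd86 (chr11:77669031-77669330, plus strand), Itgax (chr1:192149799-192150098, plus strand) and Xcr1 (chr8:132364607-132364906, minus strand), each 5′ to 3′ on the strand of the gene, with matches in capitals.
Cd80: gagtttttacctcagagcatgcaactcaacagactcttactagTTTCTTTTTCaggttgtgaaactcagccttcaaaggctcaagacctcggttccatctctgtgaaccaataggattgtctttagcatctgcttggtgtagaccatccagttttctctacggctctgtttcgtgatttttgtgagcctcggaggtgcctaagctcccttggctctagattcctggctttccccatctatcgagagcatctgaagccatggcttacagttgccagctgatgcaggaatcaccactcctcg
Cd86: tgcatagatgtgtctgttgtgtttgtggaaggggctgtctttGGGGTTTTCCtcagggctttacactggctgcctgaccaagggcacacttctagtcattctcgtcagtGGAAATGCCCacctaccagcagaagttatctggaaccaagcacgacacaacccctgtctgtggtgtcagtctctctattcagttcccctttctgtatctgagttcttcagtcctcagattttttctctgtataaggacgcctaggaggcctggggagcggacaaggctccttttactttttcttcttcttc
Itgax: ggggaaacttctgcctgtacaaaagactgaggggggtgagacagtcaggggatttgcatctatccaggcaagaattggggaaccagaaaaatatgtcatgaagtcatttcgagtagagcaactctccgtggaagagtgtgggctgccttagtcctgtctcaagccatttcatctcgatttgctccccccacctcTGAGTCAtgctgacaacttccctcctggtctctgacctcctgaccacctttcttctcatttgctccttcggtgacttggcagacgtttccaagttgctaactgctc
Xcr1: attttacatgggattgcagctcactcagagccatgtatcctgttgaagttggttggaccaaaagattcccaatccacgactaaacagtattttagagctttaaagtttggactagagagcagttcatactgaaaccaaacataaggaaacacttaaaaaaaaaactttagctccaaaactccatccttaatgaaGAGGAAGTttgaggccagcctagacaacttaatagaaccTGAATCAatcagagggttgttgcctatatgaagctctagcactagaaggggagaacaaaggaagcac
The capitals in Cd80 are an ISRE match, those in Cd86 are 2 NF-kB matches, one on each strand, that in Itgax is an AP-1 match, and those in Xcr1 are first a PU.1 and then an AP-1 match. No 2 of these matches overlap. Among all 33469 promoter windows of the same length, 7.33% held the AP-1 letters, 2.42% the PU.1 letters, 3.92% the ISRE letters and 1.53% the NF-kB letters. Itgax, which rose in the bled knee, and Xcr1, which did not, both hold the AP-1 letters, and the windows of Ly75, Flt3, Batf3, Clec9a and Cd83 hold none of the 4 motifs. These matches describe the letters only and say nothing of whether a factor binds there.

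In the bled knee most of these genes were higher than in the opposite knee of the same rat. Of the 10, 8 were higher and 1, Xcr1, was lower by limma's moderated test with Benjamini-Hochberg adjustment over all probe sets at an adjusted p under 0.05, and Cd83 was not called. Across the whole array 34.7% of probe sets passed in the same comparison, 19.5% as higher and 15.2% as lower. The median log2 difference of the 10 genes was 1.03, beside 0.004 over all probe sets. For 5 of them (Itgax, Ly75, Cd80, Ccr7 and Flt3) every bled knee lay above every contralateral knee, where 7.9% of all probe sets had bled knees that were all higher. In whole tissue, more cells of a type and more RNA per cell cannot be told apart.

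**Figure D1:**
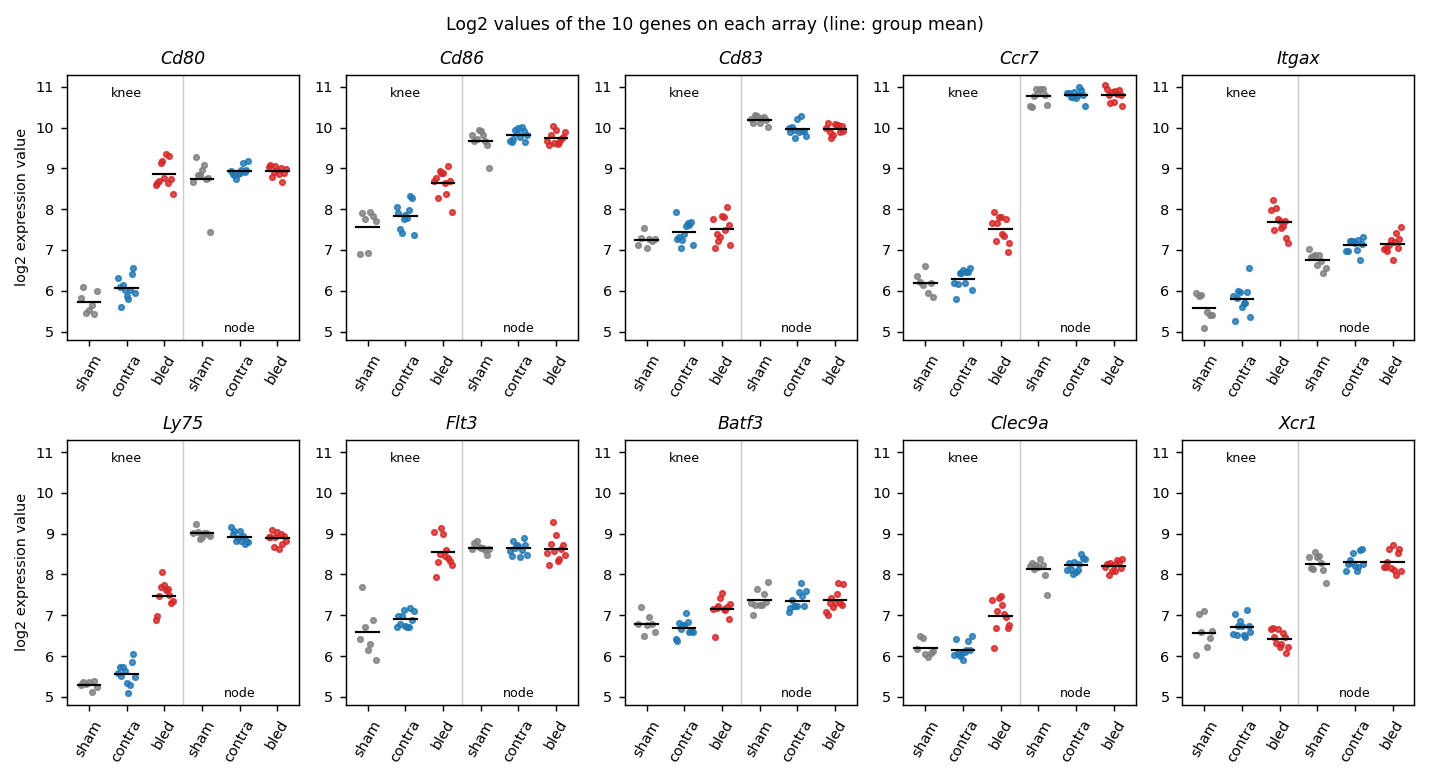
Log2 expression value of each of the 10 genes on every array, by tissue and group (sham, contralateral side written as contra, and bled side), with a line at the group mean. Bled knees stand clear of both other knee groups for Cd80, Ccr7, Itgax, Ly75 and Flt3, while the 3 node groups of each gene overlap.

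Among the costimulatory molecules, the paralogues Cd80 and Cd86 rose by different amounts and Cd83 was not called. Cd80 (probe set 17669098) ranged from 8.38 to 9.34 with a median of 8.73 on the bled knees, from 5.60 to 6.55 with a median of 6.01 on the contralateral knees and from 5.43 to 6.09 with a median of 5.66 on the sham knees. The lowest bled knee was thus well above the highest knee of the other groups. The difference from the contralateral knee was 2.79 ± 0.12 (SE, n = 11 and 11; adjusted p = 4.01e-17), a 6.92-fold higher value, and it was positive in 11 of 11 rats, from 2.18 to 3.55. The second Cd80 probe set (17868794) gave 1.90 ± 0.12 (adjusted p = 7.1e-14), so the 2 probe sets had the same direction and different sizes.

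Cd86 (17669326) was already at a median of 7.85 on the contralateral knees, between 7.36 and 8.32, and lay between 7.94 and 9.07 with a median of 8.70 on the bled knees. The groups overlapped, although each of the 11 rats was higher on the bled side, by 0.38 to 1.52. Its difference was 0.81 ± 0.15 (adjusted p = 3.49e-05), or 1.76-fold. Cd83 (17718737) lay between 7.05 and 8.05 with a median of 7.50 on the bled knees and between 7.04 and 7.94 with a median of 7.39 on the contralateral knees. The ranges were almost the same, 7 rats were higher and 4 lower on the bled side, and the difference was 0.08 ± 0.12 (95% interval -0.16 to 0.31; adjusted p = 0.699).

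Ccr7 (17660917), the receptor that leads mature dendritic cells to the node, lay between 6.95 and 7.93 with a median of 7.65 on the bled knees, between 5.79 and 6.56 with a median of 6.43 on the contralateral knees and between 5.84 and 6.60 with a median of 6.20 on the sham knees. No bled knee reached down to the other groups. The difference from the contralateral knee was 1.23 ± 0.12 (adjusted p = 2.32e-10), 2.34-fold, and positive in 11 of 11 rats.

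The general surface markers Itgax and Ly75 rose by similar amounts. Itgax (17621115), the integrin chain of CD11c, ranged from 7.17 to 8.22 (median 7.71) on the bled knees, from 5.26 to 6.56 (median 5.82) on the contralateral knees and from 5.09 to 5.95 (median 5.49) on the sham knees. All bled knees were above all others, and the highest contralateral value was that of rat K10. The difference was 1.88 ± 0.14 (3.68-fold; adjusted p = 9.55e-13), and 1.96 ± 0.13 (adjusted p = 1.33e-13) without the contralateral knee of K10. Ly75 (17772526), an endocytic receptor, ranged from 6.88 to 8.06 (median 7.49) on the bled knees, from 5.09 to 6.05 (median 5.59) on the contralateral knees and from 5.12 to 5.40 (median 5.32) on the sham knees. Away from the bleed Ly75 was dim: 7 of 11 contralateral and 7 of 7 sham knees had it below the median of their own array, and no bled knee did. Itgax was below that median on 3 of 11 contralateral and 4 of 7 sham knees, and Cd80 on 1 of 11 and 4 of 7. The Ly75 difference was 1.90 ± 0.11 (3.73-fold; adjusted p = 2.02e-14), again positive in 11 of 11 rats.

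Flt3 (17671603), the growth factor receptor, lay between 7.95 and 9.13 (median 8.45) on the bled knees, between 6.70 and 7.17 (median 6.89) on the contralateral knees and between 5.90 and 7.70 (median 6.41) on the sham knees. The contralateral knees were closely spaced, and 1 sham knee, that of rat C2, exceeded all of them without reaching the bled knees. The difference between the sides was 1.64 ± 0.16 (3.11-fold; adjusted p = 3.84e-10), from 0.98 to 2.35 in the 11 rats.

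The 3 genes of the cDC1 type did not all move in the same direction. Clec9a (17787572), a receptor for dead cell remains, lay between 6.20 and 7.48 (median 7.02) on the bled knees and between 5.90 and 6.49 (median 6.10) on the contralateral knees. The groups overlapped through the bled knee of rat K2, the one rat of 11 that was lower on the bled side, by -0.23, and the difference was 0.84 ± 0.12 (1.79-fold; adjusted p = 6.94e-07). Batf3 (17683173), a transcription factor of cDC1 development, lay between 6.47 and 7.55 (median 7.17) against 6.37 to 7.05 (median 6.66), and was 0.47 ± 0.10 higher (1.39-fold; adjusted p = 0.000286), with all 11 rats in that direction. Xcr1 (17856781), the chemokine receptor of cDC1, lay between 6.08 and 6.68 (median 6.46) on the bled knees and between 6.47 and 7.13 (median 6.73) on the contralateral knees. It was lower on the bled side in 9 of 11 rats, by a difference of -0.29 ± 0.11 (1.23-fold; adjusted p = 0.037). That call was lost (adjusted p up to 0.0774) when any 1 of 9 arrays was left out: the contralateral knees of K2, K4, K5 and K9 and the bled knees of K4, K6, K7, K10 and K11.

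Against the sham knees, 8 of the 10 genes were higher and none lower, beside 38.7% of probe sets called on the whole array, 19.9% as higher and 18.8% as lower. The 8 were the same ones as against the contralateral knee. The differences were 3.14 ± 0.14 for Cd80 (8.83-fold), 2.17 ± 0.13 for Ly75, 2.10 ± 0.15 for Itgax, 1.96 ± 0.18 for Flt3, 1.33 ± 0.13 for Ccr7, 1.08 ± 0.17 for Cd86, 0.80 ± 0.14 for Clec9a and 0.36 ± 0.12 for Batf3, the last with the highest adjusted p of these, 0.0121. The second Cd80 probe set gave 1.99 ± 0.14 (3.97-fold), beside the 2.17 of Ly75 and the 2.10 of Itgax. Cd83 gave 0.27 ± 0.13 (adjusted p = 0.109) and Xcr1 -0.16 ± 0.13 (adjusted p = 0.352). The same 5 genes as before had groups that did not overlap, beside 9.52% of probe sets that were higher without overlap. The comparisons with the contralateral and the sham knees share the bled arrays.

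Between the contralateral and the sham knees 0 of the 10 genes were called by limma, beside 1.82% of all probe sets, and 2 had an unadjusted p under 0.05, as did 15.8% of all probe sets. These were Cd80, with 0.35 ± 0.14 (adjusted p = 0.197), and Ly75, with 0.27 ± 0.13 (adjusted p = 0.304). The differences ran from -0.11 for Batf3 to 0.35 for Cd80, with a median of 0.203 beside -0.022 over all probe sets. Without the contralateral knee of K10, which was the highest of its group for Itgax, Ly75, Cd80 and Ccr7, Cd80 gave 0.31 ± 0.14 (adjusted p = 0.277).

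**Figure D2:**
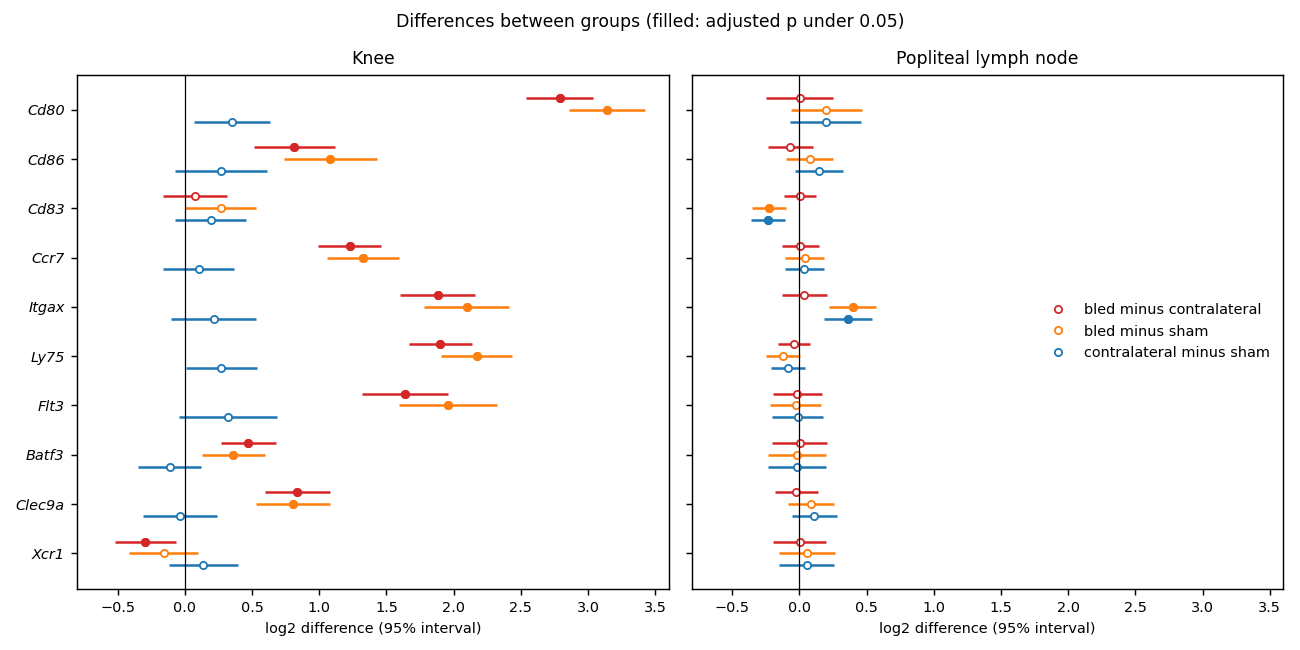
Log2 differences between groups with 95% intervals for the 10 genes, in the knee (left) and the popliteal node (right), filled where the adjusted p over all probe sets was under 0.05. In the knee the plotted probe set of Cd80 has differences of 2.79 and 3.14, while its second, not plotted, gave 1.90 and 1.99; in the node only the differences of Itgax and Cd83 from sham are filled, between -0.23 and 0.40.

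Other genes of the same processes were read from lists of related genes. Between the bled and the contralateral knees 19.5% of all probe sets were called higher and 15.2% lower. A count near those shares is no result about its list, here and in the lists that follow. Of 9 further cDC1 genes measured, 5 were higher and 2 lower on the bled side of the knee, with a median of 0.721. Wdfy4 and Itgae of that list had no matching probe set. The largest differences, all higher, began with the T cell coreceptor chain Cd8a, at 2.06 ± 0.12, which T cells also carry. Next were the transcription factors Nfil3, at 1.93 ± 0.14, and Irf8, at 1.76 ± 0.13, and Id2, an inhibitor of helix-loop-helix factors, at 0.86 ± 0.09. The 2 lower genes had smaller differences and fall outside the naming rule. Which cells carried the RNA of the genes in these lists was not tested. Of 10 measured genes listed for the second conventional type, cDC2, 2 were higher and 4 lower, with a median of -0.072. That list was not limited to genes of cDC2 alone. The lectin Clec10a was 1.44 ± 0.24 higher. The flagellin receptor Tlr5 was -0.84 ± 0.25, Klf4 -0.66 ± 0.13 and the dendritic cell factor Zbtb46 -0.37 ± 0.08 from the contralateral level. Of 10 genes listed for plasmacytoid dendritic cells, 7 were measured, and Siglech, Bst2 and Tlr9 had no matching probe set. Of the 7, 3 were higher and 2 lower, which is not a measure of these cells. Tlr7, a sensor of single-stranded RNA, was higher by 1.68 ± 0.16, Spib by 1.64 ± 0.15 and Runx2 by 1.35 ± 0.13, and the interferon regulator Irf7 was lower, at -1.42 ± 0.27.

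Of 13 genes of dendritic cell maturation, 8 were higher and 1 lower in the bled knee, with a median of 0.492. Ciita, the master regulator of MHC class II genes, was 1.71 ± 0.19 higher, Birc3, an NF-kB target, 1.31 ± 0.13 and the chemokine Ccl17 1.12 ± 0.18, while the cytokine Il15 was lower at -0.67 ± 0.12. Of 9 other ligands of the B7 and TNF families, 1 was higher and 3 were lower: Tnfsf18 (the ligand of GITR) at 0.95 ± 0.17, Icoslg at -0.53 ± 0.13, Cd276 at -0.50 ± 0.11 and Pdcd1lg2 (PD-L2) at -0.40 ± 0.13. Their median was -0.037, beside 2.79 for the B7 gene Cd80 (1.90 on its second probe set) and 0.81 for the B7 gene Cd86. On the T cell side 6 of 8 receptors of costimulation were higher and 0 lower, among them Cd40lg at 1.29 ± 0.15, the CD80 and CD86 receptors Ctla4 at 1.09 ± 0.13 and Cd28 at 0.95 ± 0.17, and Tnfrsf18 (GITR) at 0.98 ± 0.13. Tnfsf18, Ctla4 and Pdcd1lg2 were dim on both sides. Their means on the bled and contralateral knees were 4.65 and 3.70, 5.57 and 4.48, and 5.27 and 5.66. The array medians of these 2 groups averaged 5.67 and 5.69. Of 9 ligands and growth factors, among them those of CCR7 and XCR1, 1 was higher, the lymphotoxin chain Ltb at 1.02 ± 0.11, and 2 were lower, Il34 at -1.47 ± 0.13 and Csf1 at -0.27 ± 0.09. These counts were the same without the contralateral knee of K10, except that 2 of the last 9 were then higher.

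Markers of other cell types were also called in the same knees, to be read beside the 19.5% of all probe sets called higher and the 15.2% called lower. Of 10 T cell genes 9 were higher and 1 lower, and their mean lay between 7.22 and 7.86 on the bled knees, between 6.18 and 6.94 on the contralateral and between 5.97 and 6.40 on the sham knees. Of 8 neutrophil genes 6 were higher and 0 lower, with means of 7.68 to 9.57 on the bled, 5.63 to 8.78 on the contralateral and 5.47 to 5.67 on the sham knees, and without K10 no contralateral knee overlapped the bled ones. Of 10 macrophage genes 5 were higher, among them Cx3cr1 at 2.44 ± 0.17 and Cd68 at 0.88 ± 0.13, and 3 were lower, among them C1qa at -1.33 ± 0.10 and C1qb at -1.24 ± 0.11. Their mean overlapped between the groups, at 9.58 to 10.18 on the bled, 9.47 to 9.95 on the contralateral and 9.03 to 9.71 on the sham knees. Of 6 B cell genes 3 were higher and 0 lower (2 without K10), and of 8 natural killer cell genes 2 were higher and 0 lower (2 higher and 1 lower without K10). The B cell mean was 6.64 to 7.12 on the bled, 6.11 to 6.85 on the contralateral and 5.94 to 6.39 on the sham knees, and the natural killer mean 5.49 to 5.86, 5.31 to 5.76 and 5.02 to 5.42.

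Markers of the joint tissue were mostly lower or not called. All 8 adipocyte genes were lower, with means of 7.94 to 9.61 on the bled, 10.91 to 11.62 on the contralateral and 10.74 to 11.45 on the sham knees, and of 8 synovial stroma genes 1 was higher and 5 were lower (1 and 2 without K10). Of 4 skeletal muscle genes 0 were called, with means scattered from 6.38 to 12.90 on the bled, 6.88 to 13.11 on the contralateral and 6.76 to 13.18 on the sham knees. Of the 8 node-defining genes 1 was higher and 2 were lower (2 and 2 without K10). The part of these cell types in the differences of the 10 genes was not tested.

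**Figure D3:**
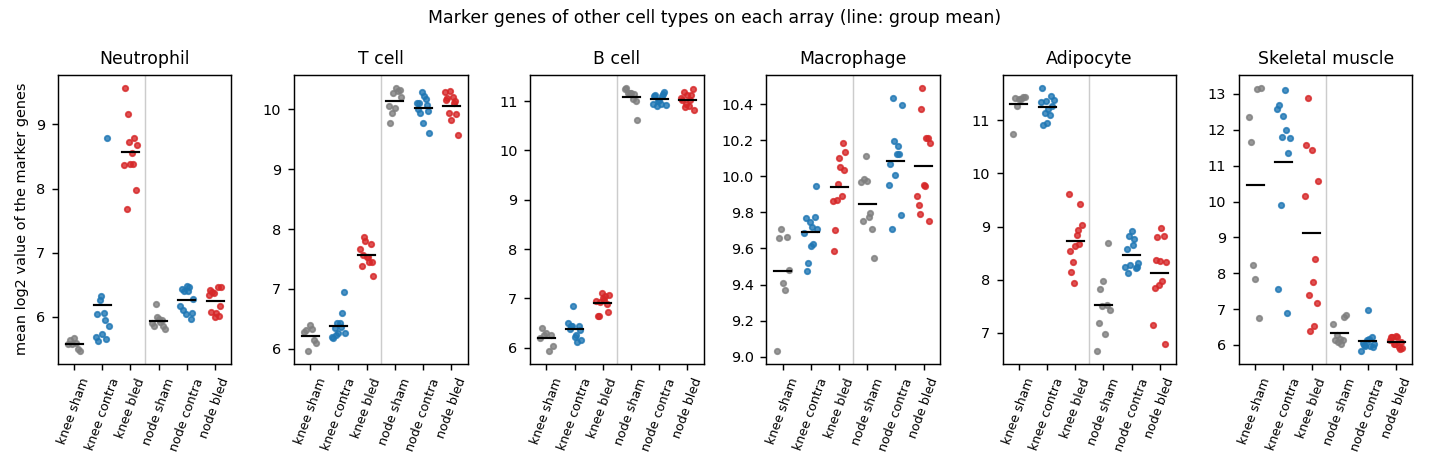
Mean log2 value of marker genes of 6 other cell types on each array, by tissue and group, with a line at the group mean; each panel has its own scale. Bled knees are high for neutrophil and T cell genes and low for adipocyte genes, and 1 contralateral knee, that of rat K10 at 8.78, lies among the bled knees for neutrophil genes.

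In the popliteal node no gene was called between the sides. Between the nodes of the bled and the contralateral side 0 of 10 were called by limma, beside 0% of all probe sets, and 0 of 10 had an unadjusted p under 0.05, which 2.34% of all probe sets had. The differences lay between -0.07 for Cd86 and 0.04 for Itgax, and the widest 95% interval was that of Cd80, from -0.25 to 0.25. For 9 of the 10 genes, all except Cd83, the interval in the node left out the difference measured for that gene in the knee. That reading leaves out the error of the knee difference and is no test between the tissues. Xcr1 was among the 9 but was not called in limma's test of the gap itself (adjusted p = 0.145).

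Against the sham nodes Itgax was higher and Cd83 lower on both sides of the bled rats. Itgax lay between 6.76 and 7.57 (median 7.13) on the bled-side nodes, between 6.76 and 7.32 (median 7.17) on the contralateral nodes and between 6.44 and 7.03 (median 6.83) on the sham nodes. The groups overlapped, with differences of 0.40 ± 0.09 (1.32-fold; adjusted p = 0.00837) and 0.36 ± 0.09 (1.28-fold; adjusted p = 0.014). Cd83 lay between 9.74 and 10.12 (median 10), between 9.75 and 10.28 (median 9.91) and between 10.02 and 10.31 (median 10.22). Its ranges overlapped too, with differences of -0.23 ± 0.06 on both sides (1.17-fold lower; adjusted p = 0.0305 and 0.0256). On the whole array 4.26% of probe sets were called for the bled-side nodes (1.91% higher, 2.34% lower) and 5.03% for the contralateral nodes (2.22% higher, 2.81% lower), so 2 of 10 genes is a small count, and both comparisons share the sham arrays. The other 8 genes lay between -0.12 and 0.20 from sham.

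Adipocyte genes also differed between the node groups. The mean of the adipocyte genes was 6.67 to 8.69 on the sham nodes, 6.79 to 8.97 on the bled-side and 8.12 to 8.92 on the contralateral nodes, and 3 and 5 of these 8 genes were called higher than sham. With that mean as a covariate Cd83 was not called on either side and Itgax was called on the bled side alone (adjusted p = 0.0288; contralateral side 0.0782). That mean itself differed between the groups, so this fit cannot tell adipocyte content from the bleed, and its part was not tested. Cd83 against the bled side was also not called without any 1 of 5 arrays, the bled-side nodes of K4, K5 and K11 and the sham nodes of C3 and C7 (adjusted p up to 0.0536), nor when each array was centred on its median. Against the contralateral side it was also not called with centring (adjusted p = 0.146) or with only the 2 groups compared (adjusted p = 0.052). Without the sham nodes of C2 and C9 both genes were called on both sides.

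A few genes of the related lists differed from sham in both nodes, named here after their values were seen. On the bled and the contralateral side, Pdcd1lg2 was higher by 0.68 ± 0.12 and 0.67 ± 0.12 (adjusted p = 0.00155 and 0.00142), Clec10a by 0.75 ± 0.17 and 0.71 ± 0.17 (0.0115 and 0.0144) and Irf7 by 0.78 ± 0.16 and 0.66 ± 0.16 (0.00665 and 0.0168). Ciita was lower, at -0.40 ± 0.09 and -0.36 ± 0.09 (0.00834 and 0.015), as was the costimulatory receptor Cd40, at -0.31 ± 0.08 and -0.28 ± 0.08 (0.0321 and 0.0473). Of the 65 genes of the 7 related lists, 8 were higher and 4 lower on the bled side, and 8 higher and 3 lower on the contralateral side. These stand beside the 4.26% and 5.03% of all probe sets called, and both comparisons share the sham arrays. With the adipocyte mean as a covariate the probe sets called on the whole array fell from 1561 to 330 and from 1844 to 21, and the calls of these list genes were not recomputed with it.

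The side difference itself differed between the tissues for 8 of the 10 genes, in a model of all 60 arrays, beside 27.8% of probe sets, 15.5% as higher in the knee. The gap between the knee and the node difference was 2.79 ± 0.18 for Cd80, 1.94 ± 0.13 for Ly75, 1.85 ± 0.16 for Itgax, 1.65 ± 0.18 for Flt3, 1.22 ± 0.13 for Ccr7, 0.88 ± 0.17 for Cd86, 0.86 ± 0.14 for Clec9a and 0.47 ± 0.14 for Batf3 (highest adjusted p of these, 0.00811). The second Cd80 probe set gave 1.88 ± 0.14. Xcr1 gave -0.30 ± 0.15 (adjusted p = 0.145) and Cd83 0.07 ± 0.13 (adjusted p = 0.788). No relation between the side differences of the 2 tissues passed: none of 10 correlations over 11 rats passed (Pearson's r from -0.30 to 0.47, smallest permutation p after adjustment 0.847; smallest for Spearman's rho 0.714), and 0 passed without the 2 rats farthest from the median.

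Without a bleed the node was the tissue with the higher value of every gene. All 10 were lower in the sham knee than in the sham node, beside 52.5% of probe sets called and 28.3% called lower, and for 9 of them, all except Batf3, the arrays did not overlap, as for 11.7% of probe sets that were lower in the knee. The gap was -4.57 ± 0.11 (23.8-fold) for Ccr7, -3.70 ± 0.11 for Ly75, -3.02 ± 0.15 for Cd80 and -2.94 ± 0.11 (7.68-fold) for Cd83. The second Cd80 probe set gave -1.68 ± 0.12 (3.19-fold). The sham knee values of Ly75, Cd80 and Itgax were dim, with some or all of them below the median of their own array. Cd86, Flt3, Clec9a and Xcr1 lay between -2.11 and -1.68, Itgax at -1.17 ± 0.13 and Batf3 at -0.59 ± 0.12. All 10 were also called without the sham knee of C5 and the sham nodes of C2 and C9. Whether knees and nodes were normalized together is not given in the sources used here, which bears on each of these values.

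How near the bled knee came to its node differed between the genes, in a comparison added after the values had been seen. Against the node of the same side, Itgax was higher in the bled knee by 0.53 ± 0.11 (adjusted p = 7.26e-05), and Cd80 (-0.08 ± 0.12, interval -0.33 to 0.17), Flt3 (-0.09 ± 0.13, interval -0.34 to 0.17) and Batf3 (-0.21 ± 0.10, adjusted p = 0.0909) were not called. The other 6 were lower in the knee, Ccr7 by the widest margin at -3.29 ± 0.09, then Cd83 at -2.45 ± 0.09, Xcr1 at -1.90 ± 0.10, Ly75 at -1.41 ± 0.09, Clec9a at -1.22 ± 0.10 and Cd86 at -1.10 ± 0.12. On the whole array 41.3% of probe sets were called in this comparison, 20.1% as higher and 21.2% as lower. The groups of these 6 genes did not overlap, as for 8.96% of probe sets that were lower in the knee. The order of the 6 groups therefore differed between genes: the bled knee ranked highest for Itgax, among the nodes for Cd80, below all nodes and above the other knees for Ly75, Cd86, Ccr7, Flt3, Batf3, Clec9a and Cd83, and lowest of all for Xcr1. On the second Cd80 probe set the bled knee mean, 7.67, was above those of all 3 node groups, 7.48, 7.46 and 7.36. Of the neighbours tested in these orders, several were not called apart. These were the 3 node groups of each gene other than Itgax and Cd83, and the bled-side and contralateral nodes of Itgax and Cd83. They were also the contralateral and sham knees of every gene, the bled and other knees for Cd83, and the bled and sham knees for Xcr1. The bled knee and its node were not called apart for Cd80, Flt3 and Batf3, though these 2 groups were not neighbours in the order of every gene.

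Among the 11 bled knees the genes varied together in small groups. Of 45 pairs, 3 passed by Pearson's r with permutation p adjusted over the 45. Flt3 and Clec9a were the closest pair, with r = 0.92 (adjusted p = 0.0009), rho = 0.90 (adjusted p = 0.0189) and r = 0.92 without the 2 arrays farthest from the median of the first gene of the pair. Itgax and Ccr7 had r = 0.85 (adjusted p = 0.0226) and r = 0.79 without those arrays, with rho = 0.84 (adjusted p = 0.0524). Batf3 and Clec9a had r = 0.83 (adjusted p = 0.0226), but rho = 0.63 (adjusted p = 0.245) and r = 0.51 without those arrays. Leaving out the ends of a gene's range can itself lower r, so the fall does not show that the relation rested on them. Cd80 and Cd86 had r = 0.69, rho = 0.58 and an adjusted p of 0.138. The cDC1 gene Xcr1 had r = -0.01 with Clec9a and -0.24 with Batf3.

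**Figure D4:**
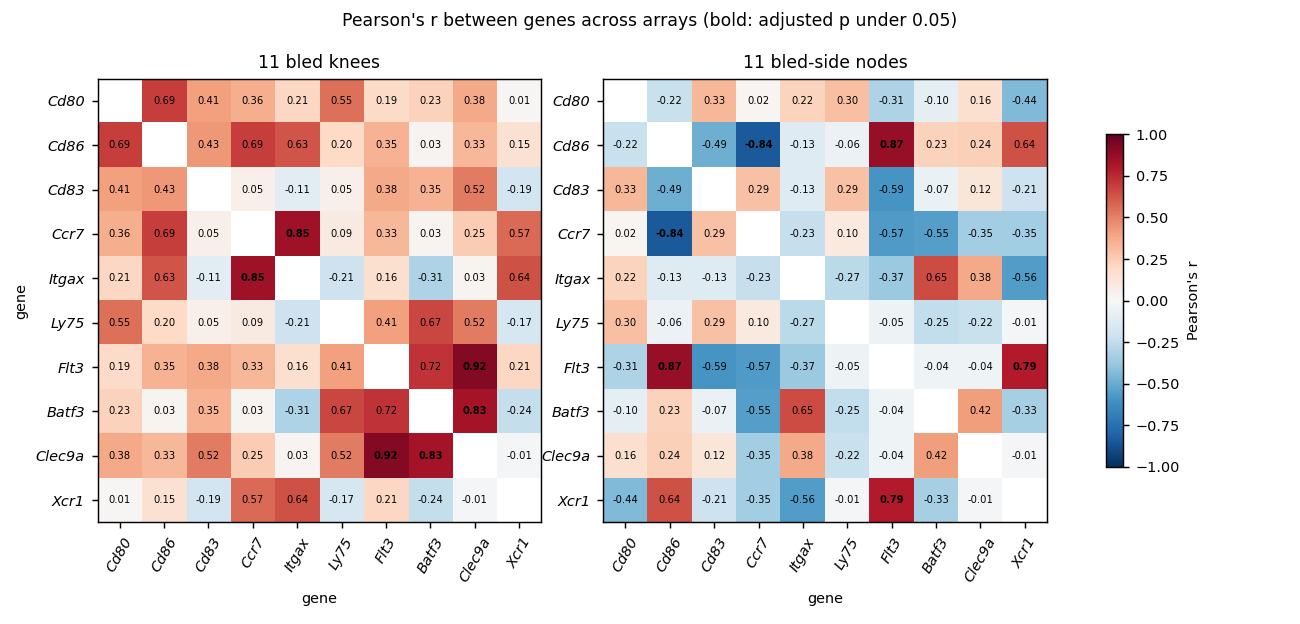
Pearson's r between each pair of the 10 genes across the 11 bled knees (left) and the 11 bled-side nodes (right), in bold where the adjusted permutation p was under 0.05. In the knee 38 of 45 pairs are positive and Flt3 with Clec9a is the highest at 0.92; in the node 17 of 45 are positive and Cd86 has 0.87 with Flt3 and -0.84 with Ccr7.

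The 11 bled-side nodes gave a different set. Cd86 went with Flt3 (r = 0.87, adjusted p = 0.0238; 0.62 without the 2 farthest arrays) and against Ccr7 (r = -0.84, adjusted p = 0.0289; -0.74 without them), and Flt3 went with Xcr1 (r = 0.79, adjusted p = 0.0289; 0.67 without them). By Spearman's rho, 0.83, -0.79 and 0.79, none of the 3 passed after adjustment (0.0823 for each). In a family added after the values had been seen, 0 of 70 correlations between the 10 genes and the means of 7 marker lists passed in the bled knees (smallest adjusted permutation p 0.186; 10 unadjusted p-values under 0.05). The highest r were 0.76 for Clec9a with B cell genes (rho 0.65), 0.74 for Cd86 with T cell genes (rho 0.68) and 0.72 for Batf3 with B cell genes (rho 0.54). The arrays of a correlation share a tissue and its cell content.

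Rat K2 lay at both ends of the bled knees. Its bled knee had the highest value of the group for Itgax (8.22), Ccr7 (7.93) and Xcr1 (6.68) and the lowest for Flt3 (7.95), Clec9a (6.20), Batf3 (6.47) and Cd83 (7.05), and its neutrophil mean was the highest of all knees at 9.57. Rat K10, whose contralateral knee was high in neutrophil and T cell genes, had the smallest side difference for Itgax (0.74), Cd80 (2.18) and Ccr7 (0.39), all positive. Without that contralateral knee the same 9 genes were called between the sides, with Xcr1 at an adjusted p of 0.0484.

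**Figure D5:**
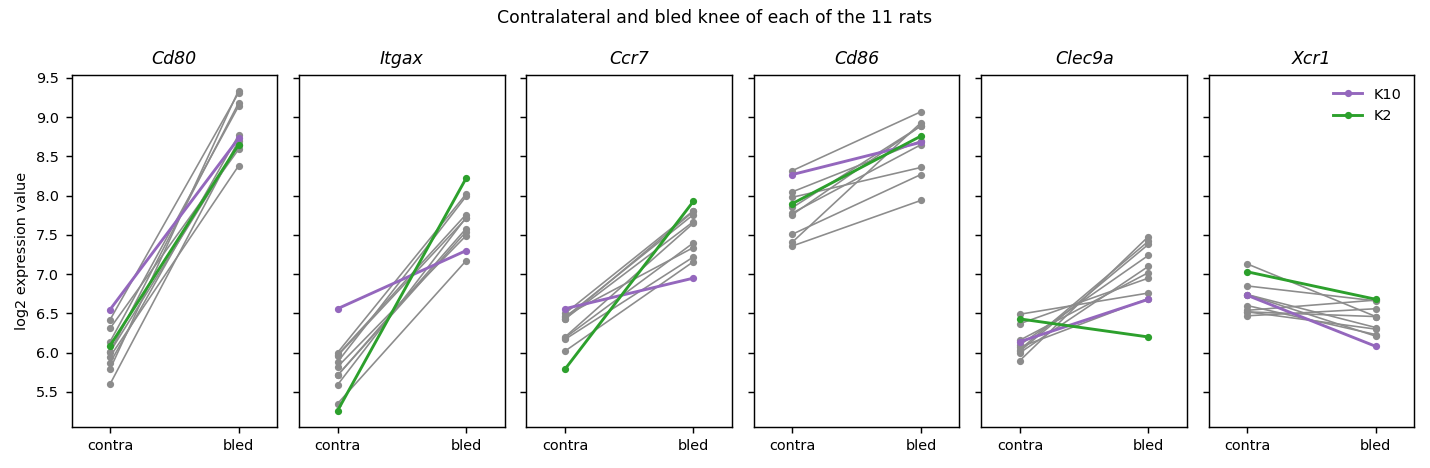
Log2 value of 6 genes in the contralateral and the bled knee of each rat, joined by a line, with rats K2 and K10 in colour. All 11 lines rise for Cd80, Itgax, Ccr7 and Cd86, 10 rise for Clec9a and 9 fall for Xcr1; K10 has the flattest line for Itgax and Ccr7.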

How the data were processed

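Total RNA of intra-articular knee tissue and popliteal nodes was measured on 60 Affymetrix rat gene arrays, 1 per sample. The deposited values are log2 expression values that the authors made with RMA, and the submitters' processing notes name Affymetrix Expression Console 1.4.46; the options of RMA, joint normalization of the tissues, scan dates and batches are not given in the sources used here. Groups, sides and rats came from the sample labels.

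Gene symbols came from the platform annotation, which lists 19086 of 36685 probe sets, 18511 with 1 symbol and 575 with several; 17599 are unlisted. All probe sets were tested without filter in limma 3.58.1 (R 4.3.3), with 3 groups per tissue or 6 groups over both, and Benjamini-Hochberg adjustment over all probe sets at 0.05. Values after ± are standard errors, and n is 11, 11 and 7 in the knee and 11, 11 and 9 in the node. Correlations used 100000 permutations. Sequences were copied from RefSeq (GRCr8). Other tools were version 1.17.8 of data.table, Python 3.11.15, numpy 2.4.6, pandas 2.3.3, scipy 1.17.1 and matplotlib 3.10.9.

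The 10 genes and the 16 lists of related genes (135 of 153 entries measured) were chosen with earlier results of these data known. Named list genes were up to 4 per list with the largest called difference between bled and contralateral knee. The labels give both sides of a rat the same number, so rat pairs them; between sides, deviations from the group means had correlations of -0.10 to 0.21 in knees and 0.12 to 0.32 in nodes. Reported models had no block for rat. Alternatives were the block, fitting only the compared groups, quantile normalization, centring, a filter on dim probe sets, an intensity trend, array weights, 1 probe set per gene, marker covariates and leaving out arrays.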

Additional observations from a re-analysis of the deposited data

Results flagged for a closer look

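In 4 of the 20 sham groups of the 10 genes (knee and node), 1 array lay farther from the rest than Dixon's 95% limit allows, where chance gives about 1 in 20. All were sham nodes. The 10 genes were read on the same arrays, so these groups are not separate trials and the count is no test against that rate. Rat C9 was lowest for Cd80 at 7.44 (next 8.66), for Cd86 at 9.0 (next 9.57) and for Clec9a at 7.49 (next 7.98), and rat C2 was highest for Ly75 at 9.24 (next 9.03). The bled and contralateral groups hold 11 arrays each and were not examined this way.

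For 8 genes the difference between bled and contralateral side was larger in the knee than in the node by the test of the gap itself: Cd80 by 2.79 (1.88 on its second probe set), Ly75 by 1.94, Itgax by 1.85, Flt3 by 1.65, Ccr7 by 1.22, Cd86 by 0.88, Clec9a by 0.86 and Batf3 by 0.47 on the log2 scale.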

How the results depend on the processing

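Of 1128 values recomputed under alternatives, 972 kept their direction and their side of the threshold. Another 100 were counts that stayed equal or moved by a small factor. Of the rest, 9 lost their call, 8 were counts that fell further, 1 gained a call (Cd83 in bled against sham knee, with centred arrays) and 38 changed sign. Leaving out single arrays entered these numbers only through the lowest and highest values. The calls of Xcr1 and Cd83 lost without single arrays are therefore not all among them. With rat as a replicate block the counts stayed at 9 genes for bled against contralateral knee and 0 for the node, and the block changed no call of the 10 genes. In bled against sham nodes the count of 2 fell to 1 with each array centred on its median, to 1 with the adipocyte mean as covariate and to 1 at the lowest when arrays were left out in turn (2 at the highest). In contralateral against sham nodes it fell from 2 to 1 with centring, to 0 with the adipocyte covariate and to 1 with only the 2 groups compared, and the cause was not tested. By Spearman's rho, 1 pair among bled knees and 0 among bled-side nodes passed. Xcr1 in bled against contralateral knee was also not called after quantile normalization. The 38 sign changes were all uncalled values, at -0.04, -0.03, -0.02, -0.01, 0.00, 0.01, 0.02, 0.03 or 0.04, in the nodes and for Clec9a in contralateral against sham knee; leaving out single arrays moved the same differences as low as -0.05, -0.06, -0.07, -0.08 or -0.09 and as high as 0.05, 0.07, 0.09 or 0.11.

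Counts over all probe sets moved more. Bled against sham nodes went from 1561 to 330 with the adipocyte covariate, 857 with 2 groups and 926 without sham C2 and C9; contralateral against sham nodes from 1844 to 21, 1137 and 1063; contralateral against sham knees from 666 to 402 with array weights, 381 with 2 groups and 408 without sham C5. The fit of 1 probe set per gene called 11709 probe sets between sham knee and node, beside 19276, with fewer tested. Centring turned the higher share from 7307 of 14215 to 8636 of 13569 in bled against sham knees, 361 of 666 to 634 of 851 in contralateral against sham knees, 701 of 1561 to 938 of 1352 in bled against sham nodes and 813 of 1844 to 1052 of 1494 in contralateral against sham nodes.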
